A study of Mus musculus with 8 samples.

Results

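Voltage-gated potassium channel subunits are described here across 8 poly(A) RNA libraries of mouse medial prefrontal cortex. The subunits were taken as the protein-coding genes whose GENCODE M21 symbol is Kcna, Kcnb, Kcnc, Kcnd, Kcnf, Kcng, Kcnh, Kcnq, Kcns or Kcnv followed by a number. A minimum of 10 counts in at least 4 of the 8 libraries was required. Of 40 genes with such a symbol, 37 met it, out of 54446 gene identifiers in the table. Kcna7, Kcna10 and Kcnv2 did not, with at most 12, 16 and 6 counts in any library. All 37 also passed the low-count filter of the test, which left 17636 genes.

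The study concerns Ino80e, which encodes a component of the chromatin remodeller INO80, and its design text names an adeno-associated virus delivered by stereotaxic injection into this region. One group of 4 libraries is labelled Ino80e overexpression and the other group of 4 is labelled wild-type mice. The sources used here give neither the virus serotype, the promoter of the transgene, the strain, sex and age of the mice, nor any control virus in the wild-type mice. They do not say whether libraries come from different mice, and p-values here cover only library-to-library spread, some of which may be technical.

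These channels open when the membrane depolarises and let potassium leave the cell, which repolarises the action potential and sets how readily a neuron fires again. A functional channel is a tetramer around a shared pore, and subunits assemble mainly within their own subfamily. Kcna subunits act in axons, Kcnb and Kcnd subunits on the soma and dendrites, Kcnc subunits in fast-spiking cells, and Kcnq subunits carry the M-current that muscarinic receptors suppress. Kcnf, Kcng, Kcns and Kcnv subunits are electrically silent: alone they form no working channel, and they modify Kcnb channels when they join them.

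Library totals ran from 44762378 to 60490153 counts. Levels below are CPM, counts scaled to a common library size after TMM normalization (trimmed mean of M-values), with the mean ± SD over 4 libraries. Ino80e stood at 74.1, 23.4, 23.3 and 45.04 CPM in replicates 1 to 4 labelled overexpression, and at 22.3, 19.5, 25.5 and 20.7 CPM in wild type. Replicates 2 and 3 of the group labelled overexpression thus lay inside the wild-type range. The log2 fold change of Ino80e was 0.91 (SE 0.42, edgeR adjusted p = 0.513; 0.47 without replicate 1 labelled overexpression), and p was 0.114 in the exact permutation test (two-sided, on log2 CPM), whose floor with these group sizes is 0.0286. Each direction below therefore refers to the label of the libraries.

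The pore of these subunits is the feature that defines the family, and the coding sequence around it separates the Kcna, Kcnb, Kcnc and Kcnd genes from the silent ones. In each gene's longest GENCODE M21 coding sequence (GRCm38), the stretch printed starts at the threonine or serine codon of the selectivity filter. The first capitals mark its glycine-tyrosine-glycine codons, found as in-frame GGNTANGGN after a threonine codon and 1 further codon, searched on the coding strand only. Later capitals mark the first proline codon, any codon, proline codon triplet (in-frame CCNNNNCCN) within 45 codons. This triplet is known in some conducting subunits from the bend of the last transmembrane segment. The examples of genes for conducting subunits are Kcna2 (chr3:107105224-107105325, plus strand) and Kcnc4 (chr3:107447712-107447813, minus strand).
Kcna2: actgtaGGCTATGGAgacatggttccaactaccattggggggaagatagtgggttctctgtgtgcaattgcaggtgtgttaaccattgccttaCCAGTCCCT
Kcnc4: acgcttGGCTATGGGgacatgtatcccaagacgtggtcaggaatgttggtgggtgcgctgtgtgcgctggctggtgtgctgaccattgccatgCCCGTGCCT

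The silent genes are shown by Kcnf1 (chr12:17174959-17175075, minus strand), Kcng1 (chr2:168262539-168262655, minus strand), Kcns2 (chr15:34839612-34839728, plus strand) and Kcnv1 (chr15:45109187-45109303, minus strand). Their stretches run to a fixed 117 bases because no proline triplet was found.
Kcnf1: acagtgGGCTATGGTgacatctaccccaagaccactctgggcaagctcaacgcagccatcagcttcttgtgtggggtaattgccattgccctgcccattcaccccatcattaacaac
Kcng1: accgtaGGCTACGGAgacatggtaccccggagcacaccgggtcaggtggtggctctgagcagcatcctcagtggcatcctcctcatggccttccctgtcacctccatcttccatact
Kcns2: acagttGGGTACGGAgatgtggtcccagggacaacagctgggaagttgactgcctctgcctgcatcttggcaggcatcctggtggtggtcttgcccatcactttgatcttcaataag
Kcnv1: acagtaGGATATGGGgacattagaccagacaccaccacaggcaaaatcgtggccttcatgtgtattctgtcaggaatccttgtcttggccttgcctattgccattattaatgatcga

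Kcnh3 (chr15:99232929-99233289, plus strand) shows the filter of the Kcnh genes. The stretch spans an intron, and the capitals in Kcnh3 mark a glycine-phenylalanine-glycine triplet, GGNTTNGGN.
Kcnh3: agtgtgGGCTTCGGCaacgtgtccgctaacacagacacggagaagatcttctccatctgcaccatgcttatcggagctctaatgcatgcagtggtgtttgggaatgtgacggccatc

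All 15 Kcna, Kcnb, Kcnc and Kcnd genes held the glycine-tyrosine-glycine codons followed by the proline triplet. All 9 silent genes held the filter codons and none held the proline triplet in this window. The 5 Kcnq genes also had the tyrosine form without the triplet, and all 8 Kcnh genes had the phenylalanine form, again without the triplet. Absence of the triplet was thus not limited to the silent genes. Among 21584 protein-coding genes with a coding sequence checked, 0.537% held the tyrosine form with its threonine codon, 0.12% held that form followed by the proline triplet, and 1.48% held the phenylalanine form with its threonine or serine codon. These matches describe letters in a window and are no measure of expression.

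In wild type the highest level of the family, scaled by the length of all annotated exons, belonged to a silent subunit gene. To compare genes, CPM was divided by the length of all annotated exons (CPM per kb). Kcnf1, a silent partner of Kcnb channels, had the highest mean level at 38.9 ± 1.61 CPM per kb. Kcnh3, a forebrain member of the ether-a-go-go-like channels, held rank 4 of the family at 34.1 ± 3.38 CPM per kb. Kcna2 of axonal channels held rank 5 at 32.1 ± 3.21 CPM per kb (SD, n = 4 each). The wild-type ranges of Kcnf1 and Kcnh3 overlapped, as did those of Kcnh3 and Kcna2 and of 27 of the 36 neighbouring pairs over the whole family. From the lowest to the highest member the level spanned 682-fold, with 17 genes at 10 CPM per kb or more and 3 genes under 1.

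**Figure D1:**
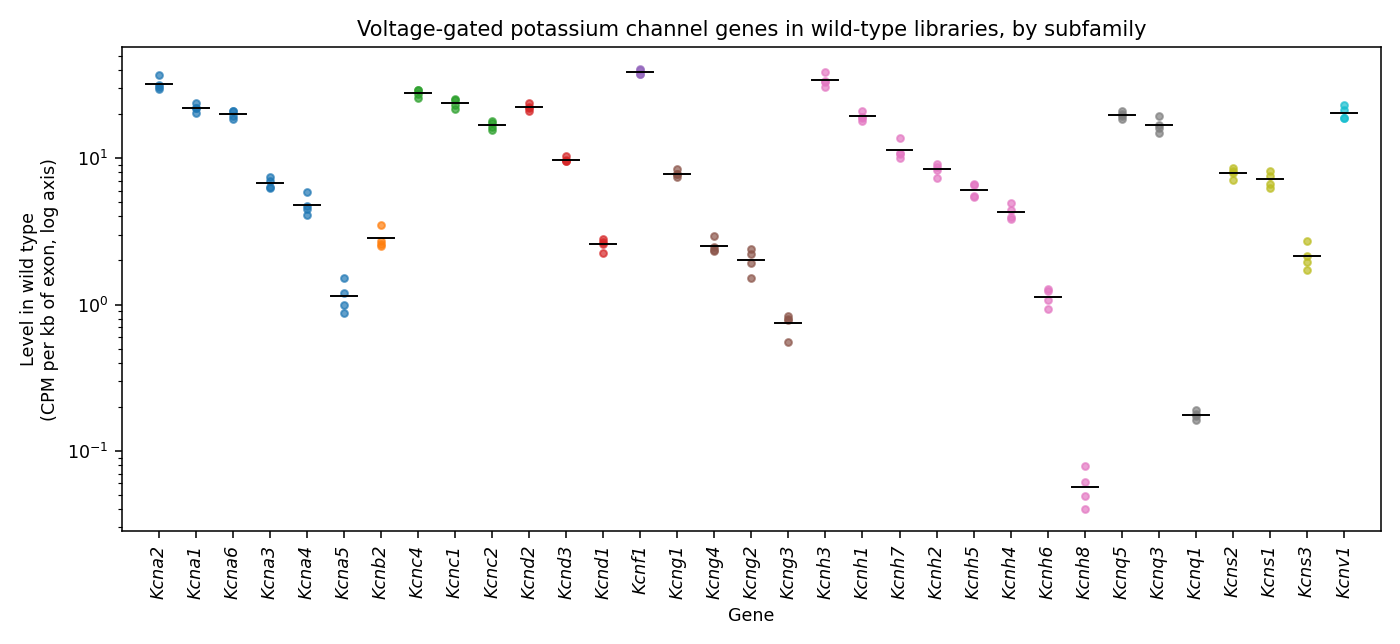
Level of 33 of the 37 genes in the wild-type libraries, in CPM per kb of exon on a log axis, grouped by subfamily (colours). Points are the 4 libraries and black lines their mean; Kcnf1 is highest at 38.9 and Kcnh8 lowest at 0.057 CPM per kb.

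Among the axonal Kcna genes, Kcna2 was followed by Kcna1 at 22.0 ± 1.43 and Kcna6 at 19.95 ± 1.19 CPM per kb. Kcna3 and Kcna4 stood far lower at 6.77 and 4.78, and Kcna5 at 1.146 CPM per kb. Kcna5, Kcna1 and Kcna6, the lowest of the subfamily among them, lie in a row on the minus strand of chromosome 6, from 126532551 to 126740674 on GRCm38. Kcna3 and Kcna2 lie side by side on the plus strand of chromosome 3, from 107036169 to 107115005.

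Of the Kcnc genes, Kcnc4 stood at 27.9, Kcnc1 at 23.8 and Kcnc2 at 16.8 CPM per kb, with wild-type ranges that did not overlap. The Kcnd genes, which carry the transient A-type current of dendrites, ran from Kcnd2 at 22.3 ± 1.21 through Kcnd3 at 9.78 ± 0.362 to Kcnd1 at 2.60 ± 0.236. Kcnb2 reached only 2.83 ± 0.469 CPM per kb.

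In the Kcnq subfamily, Kcnq5 stood at 19.8 ± 1.07 and Kcnq3, a subunit of the M-channel, at 16.7 ± 1.86 CPM per kb. Kcnq1, best known from heart, stood at 0.176. Of the Kcnh genes, Kcnh1 stood at 19.3, Kcnh7 at 11.3, Kcnh2, the gene of the cardiac rapid delayed rectifier, at 8.37, Kcnh5 at 6.05 and Kcnh4 at 4.28 CPM per kb. Kcnh6 stood at 1.13 and Kcnh8 at 0.057.

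The silent genes other than Kcnf1 were Kcnv1 at 20.5 ± 2.005, Kcns2 at 7.94, Kcng1 at 7.85, Kcns1 at 7.19, Kcng4 at 2.52, Kcns3 at 2.14, Kcng2 at 2.01 and Kcng3 at 0.742 CPM per kb. Together the 9 silent genes held 18.01% of the family's summed CPM per kb in wild type, and between 17.1% and 18.6% in all 8 libraries. With the longest transcript in place of all exons, 2 levels moved by over 1.5-fold. Kcnh3 then stood at 53.1 CPM per kb (rank 2 of the family), ahead of Kcnf1 at 38.9 (rank 3), so the order at the top depends on the length used.

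No voltage-gated potassium channel gene passed the test for a difference between the groups. Of the 37 genes, 0 passed the edgeR quasi-likelihood test at an adjusted p under 0.05, where 6 of the 17636 genes tested passed (0.034%). The lowest adjusted p was 0.343, and DESeq2 (0.249% of all genes called) and limma-voom (0.0113%) also called 0 of the 37 (Kcnh8 and Kcnq1 had no adjusted p in DESeq2), as did edgeR with the replicate number as a block (0.00567%). Over the family the log2 fold change, overexpression minus wild type, had a median of 0.0061, against 0.0016 over all genes tested, with 21 members above 0 and 16 below. The median size of the fold change, either sign, was 0.086 for the family and 0.104 for all genes.

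At an unadjusted p under 0.05 there were 3 members (8.11%), where edgeR gave 10.7% of all genes tested. Higher were Kcnh6 and Kcnc4 (5.41%, with 5.24% of all genes higher), and lower was Kcnd3 (2.7%, with 5.43% of all genes lower). Groups did not overlap for 1 member on the higher side, Kcnh6, and 1 on the lower side, Kcnd3. Each is 2.7% of the family, where 2.82% of all genes were higher and 3.02% lower without overlap. Each of these shares lay near or below that over all genes.

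How small a difference the data could hold is shown by the intervals. For 25 of the 37 members the 95% interval of the fitted fold change lay within 1.25-fold in both directions, as it did for 24 of the 28 members of at least 10 CPM. For Kcnf1 it ran from a fold change of 0.922 to 1.06. Kcnh8, at 0.23 to 0.26 CPM on average, could have changed from 0.382-fold to 2.08-fold, and Kcnq1, at 0.55 to 0.72 CPM, from 0.427-fold to 1.37-fold. Kcnh8 had 6 to 24 counts per library and Kcnq1 16 to 39, with 16 in replicate 3 labelled overexpression and at least 29 in every other library. In bulk tissue a smaller number of cells of a type and less RNA per cell cannot be told apart.

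**Figure D2:**
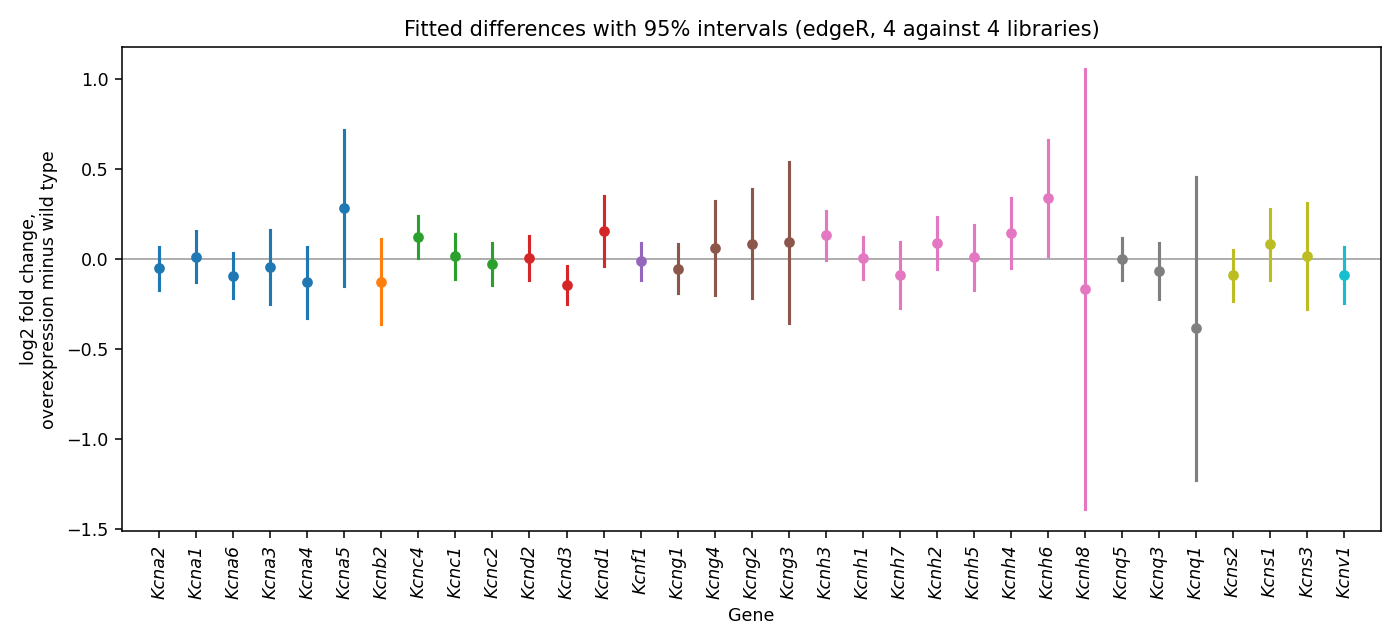
Fitted log2 fold change of 33 genes, libraries labelled overexpression minus wild type, as points with 95% intervals from edgeR (4 against 4 libraries), grouped by subfamily (colours). The intervals of Kcnd3, Kcnh6 and Kcnc4 leave out 0 before adjustment, and those of Kcnh8 and Kcnq1 are the widest.

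Kcnd3, an A-type subunit, had the lowest p of the family (0.0106, edgeR, unadjusted). It stood at 83.4, 89.5, 82.2 and 84.6 CPM in replicates 1 to 4 labelled overexpression and at 92.0, 98.8, 91.1 and 93.2 CPM in wild type. Every library labelled overexpression lay under every wild-type library. The log2 fold change was -0.14 (SE 0.052, 95% interval -0.25 to -0.037, adjusted p = 0.343). Its unadjusted p was under 0.05 in each of 21 fits, the alternatives included, where those of Kcnh6 and Kcnc4 were so in 11 fits each. The adjusted p of Kcnd3 never fell under 0.189. Kcnd3 exons overlap Kcnd3os on the opposite strand, and its counts are uncertain if strand was not used.

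The other A-type genes of the subfamily gave no call. Kcnd2 stood at 121, 101.4, 116.5 and 123 CPM in the libraries labelled overexpression and at 123, 115.3, 108 and 113 CPM in wild type (log2 0.0049, SE 0.060). Kcnd1 stood at 14.96, 15.6, 14.1 and 16.5 CPM against 11.98, 14.2, 14.9 and 13.8 CPM (log2 0.16, SE 0.095, edgeR adjusted p = 0.561). The groups overlapped for both genes.

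Kcnh6, a scarce ether-a-go-go-related subunit, was the only member with separate groups on the higher side. Its values were 5.54, 5.02, 4.96 and 4.81 CPM in the libraries labelled overexpression and 3.32, 4.38, 4.54 and 3.82 CPM in wild type. The gap between the groups was small beside the wild-type spread. The log2 fold change was 0.34 (SE 0.156, edgeR adjusted p = 0.445).

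Kcnh3 was measured at 232, 197, 223 and 208 CPM in the libraries labelled overexpression and at 194, 190.3, 223 and 177 CPM in wild type (log2 0.13, SE 0.065, edgeR adjusted p = 0.482). Wild-type replicate 3 lay among the libraries labelled overexpression. Its exons overlap Mcrs1 on the opposite strand, which leaves its counts uncertain in the same way. Kcnh4 stood at 18.5, 16.7, 18.6 and 21.0 CPM in the libraries labelled overexpression and at 17.4, 15.3, 19.4 and 15.6 CPM in wild type (log2 0.14, SE 0.095). Kcnh2 stood at 42.2, 41.6, 47.3 and 41.15 CPM against 35.6, 40.02, 42.2 and 44.3 CPM (log2 0.087, SE 0.070). Both overlapped between the groups. In the subfamily, 6 of 8 genes were above 0, and the exceptions were Kcnh7 (log2 -0.091) and Kcnh8 (log2 -0.17).

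Kcnc4, a fast-inactivating member of its subfamily, stood at 116, 111, 114 and 103 CPM in the libraries labelled overexpression and at 99.99, 108, 106 and 94.6 CPM in wild type. Only replicate 4 of the group labelled overexpression lay inside the wild-type range. The log2 fold change was 0.12 (SE 0.056, edgeR adjusted p = 0.447). Kcnc1 (log2 0.015, SE 0.061) and Kcnc2 (log2 -0.030, SE 0.056) gave no call, with groups that overlapped in both.

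Kcna genes were mostly below 0, 4 of 6, with none past either threshold. Kcna6 stood at 102, 125, 107 and 111 CPM in the libraries labelled overexpression and at 124, 125, 115 and 110.2 CPM in wild type (log2 -0.093, SE 0.061, edgeR adjusted p = 0.585). Kcna4, an A-type member, stood at 19.6, 20.4, 22.9 and 21.6 CPM against 19.7, 22.7, 21.8 and 28.3 CPM (log2 -0.13, SE 0.095). Kcna6 was level in replicate 2 of both groups, and Kcna4 was highest in wild-type replicate 4. Kcna5 stood at 3.04, 4.07, 3.34 and 5.52 CPM against 2.83, 3.42, 2.52 and 4.36 CPM, with replicate 4 highest in both groups (log2 0.28, SE 0.21). Without wild-type replicate 4 the Kcna4 value was -0.018, and without replicate 4 labelled overexpression the Kcna5 value was 0.086. Kcna2, the most abundant of them, was at 384, 352, 368 and 370.2 CPM in the group labelled overexpression. In wild type it was at 351, 437, 374 and 365 CPM, a range that took in all 4 other libraries (log2 -0.053, SE 0.058).

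**Figure D3:**
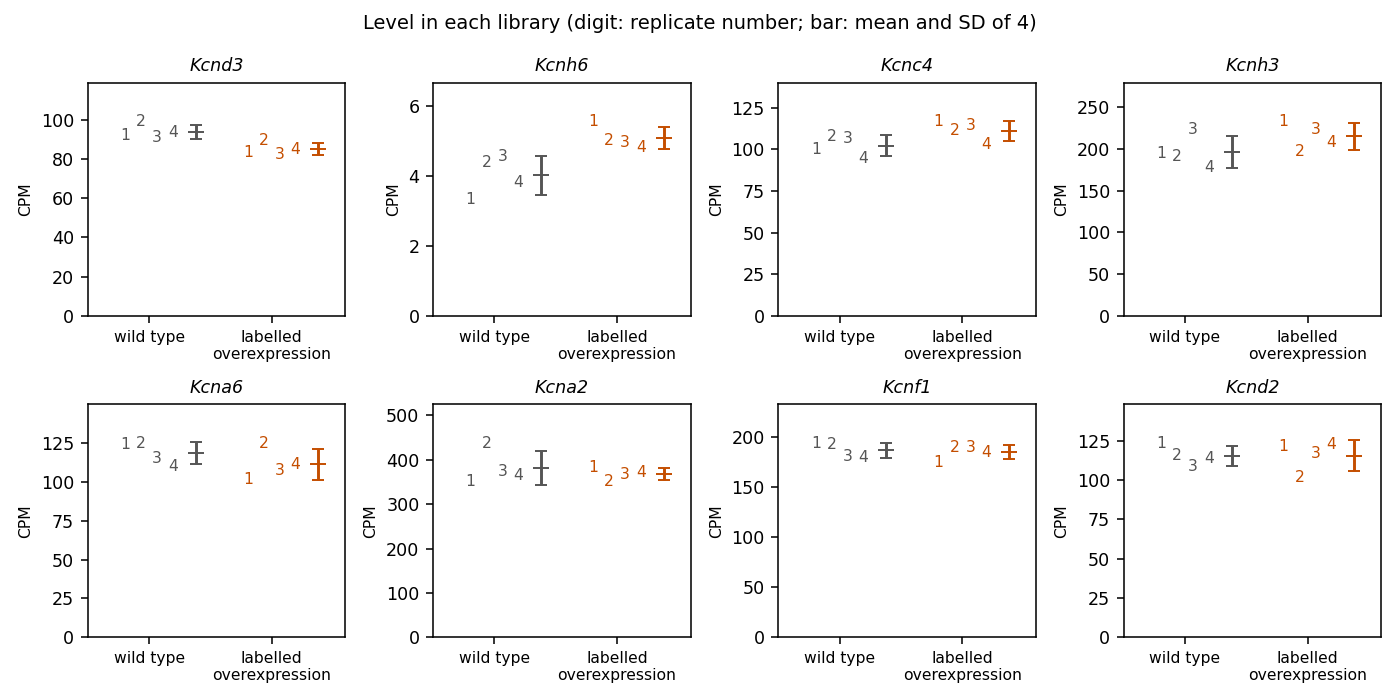
Level in CPM of 8 genes in every library, wild type in grey and labelled overexpression in orange, with digits for the replicate number and bars for mean and SD (n = 4). Only Kcnd3 and Kcnh6 show separate groups, and Kcnf1 lies within 174.7 to 194 CPM in all 8 libraries.

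In the Kcnq and Kcnb subfamilies, Kcnq3 (log2 -0.067, SE 0.073), Kcnq5 (log2 0.0001, SE 0.057) and Kcnb2 (log2 -0.13, SE 0.11) gave no call either, and the groups overlapped in each.

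Among the silent genes, Kcnf1 stood at 174.7, 189, 189.7 and 184 CPM in the libraries labelled overexpression and at 194, 192, 180.4 and 179 CPM in wild type (log2 -0.014, SE 0.050). Kcng1 stood at 32.2, 34.8, 35.7 and 33.7 CPM against 34.9, 34.9, 33.6 and 38.2 CPM (log2 -0.054, SE 0.066). Kcnf1 was lowest in replicate 1 labelled overexpression and Kcng1 highest in wild-type replicate 4, with overlap in both. Kcns2 stood at 41.2, 39.5, 46.4 and 39.7 CPM against 39.7, 45.9, 47.9 and 43.9 CPM (log2 -0.090, SE 0.069). Kcnv1 stood at 101.4, 87.3, 83.7 and 80.9 CPM against 97.9, 105.2, 86.5 and 86.5 CPM (log2 -0.089, SE 0.075). These groups overlapped too, and the silent genes split 5 above and 4 below 0.

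The direction of a member ran with the base composition of its exons. Of the 14 members with an exonic GC content under 50%, 10 were below 0 (median log2 -0.078), and of the 14 with 55% or more, 11 were above 0 (median log2 0.085). All genes tested did the same, with medians of -0.059 under 50% and 0.095 at 55% or more. Fold change and GC content had a rank correlation of 0.608 across the 37 genes and 0.413 across 17627 genes tested. Among genes of at least 10 CPM it was 0.664 for 28 members and 0.695 for 9592 genes. This describes genes that share the same 8 libraries and are not independent replicates.

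A GC offset was entered in the edgeR fit. It is a spline on GC content of each library's deviation from the gene's mean log2 CPM over the libraries. The offset moved the values of GC-rich members down. Kcnc4 (GC 59.6%) went to log2 0.0065, Kcnh3 (57.7%) to 0.028 and Kcnh6 (57.6%) to 0.24. Kcnd3 (48.9%) stayed at -0.14 (SE 0.052, adjusted p = 0.928). With the offset the members under an unadjusted p of 0.05 were 3 of 37 (8.11%, with 4.84% of all genes tested): Kcnd3, Kcna6 (log2 -0.16, SE 0.063) and Kcng1 (log2 -0.16, SE 0.066), all lower, where 2.7% of all genes tested were lower at that p. No member passed after adjustment, where 0.0284% of all genes did.

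**Figure D4:**
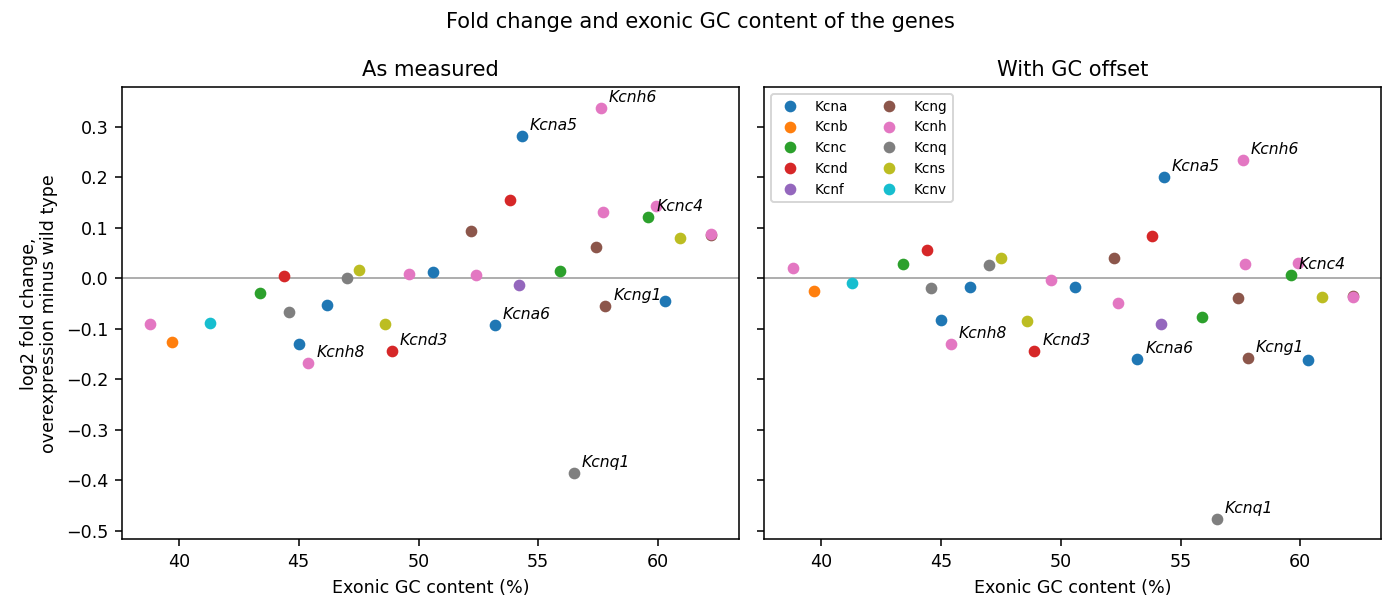
log2 fold change of 33 genes against its exonic GC content in percent, as measured (left) and with the GC offset (right), coloured by subfamily. On the left 10 of the 14 members under 50% GC lie below 0 and 11 of the 14 at 55% or more above 0, counted over all 37 members. On the right the rank correlation over all 37 members is -0.143 in place of 0.608. The offset is fitted to these same libraries to take out their trend with GC content, so a fall toward 0 is built in.

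The family also differed between single libraries of 1 group. Wild-type replicate 2 held the highest value of the 8 libraries for 12 of the 37 members (32.4%), where it did so for 18.5% of all genes tested. Replicate 2 of the group labelled overexpression held the lowest value for 13 members (35.1%), where it did so for 12.6% of all genes. Its median shift from the wild-type mean was -0.10 on the log2 scale over the family and 0.0016 over all genes. Wild-type replicate 1 lay nearly as low, with the lowest value for 9 members (24.3%, with 11.8% of all genes) and a median shift of -0.089 over the family and 0.0051 over all genes. Examples with AT-rich exons, chosen after their values were seen, are Kcnb2 and Kcnh7. Kcnb2 (GC 39.7%) was at 33.2 CPM in that library and at 53.4 CPM in wild-type replicate 2, and between 37.9 and 42.2 CPM in the other 6. Kcnh7 (GC 38.8%) was at 147 and 208 CPM in the same libraries. In wild-type replicate 2 the shift ran against GC content, with a rank correlation of -0.509 over the members and -0.247 over all genes. In replicate 2 labelled overexpression it ran with it, at 0.550 and 0.243. Wild-type replicate 3 had a correlation of 0.575 over the members with a median shift of -0.0015, and wild-type replicate 1 one of -0.087 with its shift of -0.089. The part of base composition in these shifts was not tested.

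**Figure D5:**
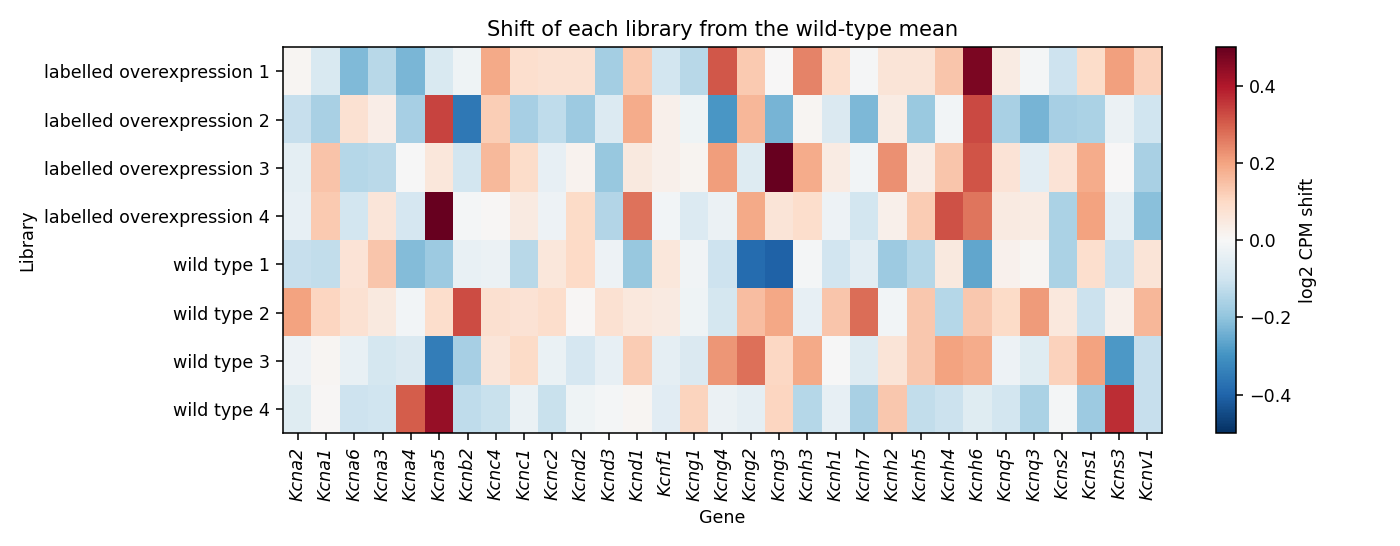
Shift of each library (rows) from the wild-type mean in log2 CPM for 31 genes (columns), red higher and blue lower, with the colour scale ending at 0.5 either way. Kcnq1 and Kcnh8 are left out because they lie under 1 CPM. Wild-type replicate 2 is red and replicate 2 labelled overexpression blue at Kcnb2, Kcnh7 and Kcnq3.

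Because 2 libraries labelled overexpression lay at the wild-type level of Ino80e, the fit was repeated without replicates 2 and 3 of that group. None of the 37 genes passed, where 1 of all genes tested did. Kcnd3 stood at log2 -0.16 (adjusted p = 0.642), Kcnh6 at 0.36 (adjusted p = 0.722) and Kcnc4 at 0.10 (adjusted p = 0.765) by edgeR. Replicates 1 and 2 of that group had the highest mean log2 shift of the 5 microglia markers among the 8 libraries, 0.241 and 0.286 from the wild-type mean. Without them 0 members passed, where 11 of all genes tested did. Kcnd3 was then at log2 -0.17, Kcnh6 at 0.28 and Kcnc4 at 0.086.

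Proteins that assemble with these channels were examined from a fixed list of 25 symbols, 22 of which were tested. None passed, where 0.034% of all genes tested did. At an unadjusted p under 0.05 by edgeR, 2 were lower (5.43% of all genes tested were) and 0 higher (5.24% of all genes). The median log2 fold change was -0.017. The lower genes were Lgi1, a secreted protein of the axonal Kcna complex, with 106.9 ± 3.23 against 119.7 ± 13.9 CPM (log2 -0.16, SE 0.065, edgeR adjusted p = 0.392), and Kcnip4, a calcium-binding partner of Kcnd channels, with 40.7 ± 3.39 against 45.3 ± 3.26 CPM (log2 -0.15, SE 0.069, edgeR adjusted p = 0.431). The beta subunit genes Kcnab1 (log2 -0.11, SE 0.056) and Kcnab3 (log2 0.15, SE 0.078) pointed in opposite directions. Lgi1, Kcnip4 and Kcnab1 have 43.4% to 44.1% GC, and their log2 fold changes with the GC offset were -0.10, -0.10 and -0.051.

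Potassium channels of other classes and the HCN pacemaker channels made a second list of 30 genes, 25 of them tested. None passed, where 0.034% of all genes tested did. None reached an unadjusted p under 0.05 by edgeR, where 10.7% of all genes tested did. The median log2 fold change was 0.034, with 16 genes above 0. The lowest p belonged to Kcnn1, a small-conductance calcium-activated channel (log2 0.17, SE 0.084, edgeR adjusted p = 0.476), the pacemaker channel gene Hcn2 (log2 0.11, SE 0.058), the large-conductance channel gene Kcnma1 (log2 -0.11, SE 0.058) and the sodium-activated channel gene Kcnt1 (log2 0.13, SE 0.079).

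Cell type markers bear on levels in bulk tissue. All 7 cortical excitatory neuron markers were present in every library, with a summed level of 2529 to 2838 CPM in the group labelled overexpression and 2355 to 2695 CPM in wild type. Slc17a7 made up most of that sum, with 2067 ± 106.5 against 1961 ± 117 CPM (log2 0.076, and -0.017 with the GC offset). Only 2 of the 7 were above 0, with a median log2 fold change of -0.034. The 7 GABAergic interneuron markers summed to 707 to 786 against 707 to 773 CPM. The 4 parvalbumin interneuron markers, of cells rich in Kcnc channels, summed to 172 to 191 against 179 to 214 CPM, and Pvalb averaged 28.8 ± 1.65 against 31.4 ± 1.36 CPM. Tac1 went the other way, with 11.7 ± 2.01 against 10.3 ± 2.61 CPM. Erbb4, the largest of the 4, averaged 87.3 ± 6.13 against 96.4 ± 12.4 CPM, with 114 CPM in wild-type replicate 2. The groups overlapped for Pvalb, Tac1 and Erbb4. No marker passed the test over all genes, where 0.034% of all genes tested did, and none was at 0 in any library. The 5 microglia markers summed to 288 to 353 against 273 to 311 CPM. Of these, 3 were higher at an unadjusted p under 0.05 by edgeR (5.24% of all genes tested were). They were Csf1r, Tmem119 and Cx3cr1 (log2 0.18, 0.23 and 0.14), while P2ry12 was below 0 (log2 -0.12). With the GC offset the unadjusted edgeR p was 0.108 for Csf1r, 0.114 for Tmem119 and 0.085 for Cx3cr1. Sums for 5 astrocyte markers were 1110 to 1306 against 1113 to 1234 CPM, for 5 oligodendrocyte markers 3892 to 5696 against 4700 to 5655 CPM, and for 4 endothelial markers 222 to 242 against 209 to 271 CPM. The other neuronal or glial markers at an unadjusted p under 0.05 by edgeR were Gfap of astrocytes (190.3 ± 31.9 against 137 ± 20.7 CPM, log2 0.48, SE 0.16) and Neurod6 of excitatory neurons (73.05 ± 7.61 against 84.4 ± 6.38 CPM, log2 -0.21, SE 0.069). The part of these cell types in the channel values was not tested.

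Markers of regions next to the cortex differed between libraries more than between groups. The 6 striatal markers summed to 129.5 to 292 CPM in the group labelled overexpression and 130.2 to 254 CPM in wild type. Tac1, listed above with the parvalbumin interneuron markers, was lowest in each group in the library lowest in these striatal markers. It stood at 8.87 CPM in replicate 1 labelled overexpression and at 7.17 CPM in wild-type replicate 3. The relation of Tac1 to the striatal markers was not tested. The 4 choroid plexus markers, Ttr among them, summed to 12.4 to 106 CPM against 7.62 to 1102 CPM, the last in wild-type replicate 4. Over the 8 libraries the Kcna5 level ran with the mean striatal marker shift (Pearson r 0.749, permutation p = 0.0326; Spearman rho 0.786, permutation p = 0.0279). Without the 2 libraries farthest from the median of the markers r was 0.683. Kcnv1 ran the other way (Pearson r -0.58, permutation p = 0.135; Spearman rho -0.731, permutation p = 0.0467; r -0.942 without those libraries). Of 37 such relations none passed after adjustment (adjusted p = 0.767 for r and 0.818 for rho in both genes), and this family of tests was chosen after seeing the marker values.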

How the data were processed

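Poly(A) RNA of mouse medial prefrontal cortex was measured in strand-specific libraries made with dUTP, per the labels' protocols. The authors deposited raw read counts per Ensembl gene, 1 column per library. The submitters' processing notes name the builds mm10 and GRCm38 and the tools featureCounts 2.0.3, STAR 2.7.10 and Trimmomatic 0.39, without their roles. How strand and multi-mapping reads were counted, and with which annotation release, was not given in the sources used here. Exons of 9 of the 37 genes overlap a gene on the opposite strand (Kcna6, Kcnd3, Kcng2, Kcnh3, Kcnh7, Kcnq1 and Kcnq5 among them) and none on the same strand, so those 9 are uncertain.

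Symbols, exon lengths, GC content and coding sequences came from GENCODE M21 (GRCm38), matched by identifier. Groups and replicate numbers came from the sample titles. Genes were filtered with filterByExpr, scaled by TMM and tested over all 8 libraries by the quasi-likelihood F test of edgeR 4.0.16 with robust estimation (R 4.3.3), with Benjamini-Hochberg adjustment over 17636 genes and a threshold of 0.05. Intervals are 95% intervals from the fit's degrees of freedom. Alternatives were RLE and upper-quartile scaling, other filters, no robust estimation, DESeq2 1.42.0, limma-voom (limma 3.58.1), the replicate number as a block, the GC offset (5 degrees of freedom), and leaving out libraries. No 2 libraries were copies (chi-square per degree of freedom at least 9.08).

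The test was tried on simulated data of 17365 genes with 50 changed at each of 4 sizes. It called 58% of those changed by 1.25 times, 66% by 1.5 times, 92% by 2 times and 96% by 4 times, and made 17 false calls. The simulated counts were drawn gene by gene, without the shifts with GC content seen in these libraries. The rates need not hold for the real data, where 6 of 17636 genes were called. The members and lists were chosen with earlier results of these data known. Values per library are given for the 12 members with the lowest p and the highest member of each subfamily, except that single-gene results of 4 members, which stay in all counts, are not reported here, and up to 4 genes of each list of channels or partners are named. Other members are given by their fits.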

Additional observations from a re-analysis of the deposited data

Results flagged for a closer look

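Kcnq5, an M-current subunit gene, had 1 library far from the rest of its group. Replicate 2 of the group labelled overexpression stood at 136 CPM, with replicates 1, 3 and 4 at 157, 159 and 157 CPM. Wild-type libraries ran from 143 to 162 CPM. The gap took up 0.881 of the group's range, above Dixon's 95% critical value for 4 values. It was the only such value among 76 groups checked (37 members and Ino80e in both groups), where chance gives about 5%. The same library held the lowest value of the 8 for 13 members.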

How the results depend on the processing

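None of the 37 channel genes passed the threshold in any of the 20 alternative fits that gave it an adjusted p. Kcnh8 and Kcnq1 had none with DESeq2 or with the filter of at least 1 CPM. The number of all genes called was 6, and became 83 with no low-count filter, 44 with DESeq2, 2 with limma-voom, 2 without robust estimation, 1 without overexpression libraries 2 and 3, and 11 without overexpression libraries 1 and 2. Leaving out single libraries gave 1 to 8 calls: 8 without overexpression replicate 4, 2 without overexpression replicate 1 or 3, and 1 without overexpression replicate 2 or any 1 wild-type library. With the replicate block there was 1 call, 0 among the channel genes. Same-numbered libraries did not deviate together over the genes tested (correlations of -0.051, -0.043, 0.015 and 0.027 for replicates 1 to 4). Pairs with different numbers ran from -0.111 to 0.103. The labels do not say what the numbers mark, and such correlations cannot show whether they mark a shared litter or day. Channel genes at an unadjusted p under 0.05 numbered 3, and 1 to 5 without single libraries: 1 without overexpression replicate 3 or wild-type replicate 1, and 5 without wild-type replicate 3. The family's median log2 fold change lay between -0.0256 and 0.0446. Values near 0 changed sign. With the GC offset Kcnh2 was at -0.0365, and with the replicate block and GC offset at -0.0324. Without overexpression libraries 1 and 2 Kcnf1 was at 0.0064. Over single libraries left out, Kcna2 ran from -0.0911 to 0.0154, Kcnd2 from -0.0259 to 0.0624 and Kcnf1 from -0.0329 to 0.0117. The cause of these changes was not tested. The summed level of the family was 499 CPM per kb of all exons and 588 per kb of the longest transcript. Kcnh8 and Kcnq1, both under 1 CPM, had 6 to 24 and 16 to 39 counts per library. Ino80e was at 0.472 to 1.1094, Kcna4 at -0.1984 to -0.0180 and Kcna5 at 0.0855 to 0.4499 with single libraries left out.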
